A study of Mus musculus with 4 samples.

Results

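The troponins and tropomyosins, the calcium switch of the thin filament, were examined in the left ventricle of mice labelled wild-type (WT) or STIM1KO after a sham operation or transverse aortic constriction (TAC). The set was 10 genes chosen by symbol, 7 troponin genes (Tnnt1, Tnnt2, Tnni1, Tnni2, Tnni3, Tnnc1 and Tnnc2) and 3 tropomyosin genes (Tpm1, Tpm2 and Tpm3). Every probe paired with these symbols was taken, which gave 11 of the 23473 probes and 10 of the 16390 named genes. Tpm3 had 2 probes and each other gene had 1. All 11 probes had a value on every array.

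There were 4 groups with 1 array each, all from male C57BL/6 mice: WT and STIM1KO, each after sham and after TAC. TAC ties a ligature around the aorta over a wire of 0.3 mm and loads the ventricle with pressure. Surgery was at 10 weeks of age, and RNA was taken 4 weeks later, at 14 weeks. The labels print an average ratio of heart weight to body weight, without a unit, of 4.1 (sham) and 6.7 (TAC) in WT, and 4.5 (sham) and 4.9 (TAC) in STIM1KO. The labels do not say how STIM1 was removed, in which cells, or whether RNA from several mice was pooled. STIM1 senses calcium in the endoplasmic reticulum and opens Orai channels at the cell surface. With 1 array per group, no difference between 2 arrays has a replicate check.

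Each thin filament is an actin strand carrying tropomyosin dimers, with a troponin complex on each dimer. Troponin C binds calcium, troponin I holds the filament in its inhibited state, and troponin T anchors the complex to tropomyosin. The adult mouse ventricle is known for Tnnt2, Tnni3, Tnnc1 and alpha-tropomyosin from Tpm1. Tnni1 encodes slow skeletal troponin I and is the fetal heart form, Tnnt1 is the slow skeletal troponin T, and Tnni2 and Tnnc2 are the fast skeletal forms of troponin I and C. Tnnc1 serves both cardiac and slow muscle. Tpm2 encodes beta-tropomyosin and Tpm3 the slow muscle and non-muscle forms. In a whole ventricle, fewer cells of a type and less RNA per cell cannot be told apart.

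The STIM1KO TAC array stood apart from the others. Over the 7020 genes that passed the intensity filter, its Pearson correlation across genes was between 0.963 and 0.974 with the other arrays, which correlated at 0.987 to 0.990 among themselves. The SD of log2 differences across genes was 0.25 for WT TAC minus WT sham and 0.29 for STIM1KO sham minus WT sham. It was 0.42 for STIM1KO TAC minus STIM1KO sham and 0.42 for STIM1KO TAC minus WT TAC, so the same log2 difference is less unusual in those comparisons. The Stim1 probe, whose mean fell below the intensity filter, was dimmer on the STIM1KO arrays. Its normalized intensities were 41.6 (sham) and 33.9 (TAC) in WT, and 20.7 (sham) and 13.8 (TAC) in STIM1KO.

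Of the 10 genes, 8 passed the filter, a mean log2 intensity at or above 4.87. Tnni1 and Tnnc2 did not. In the counts that follow, the brighter of the 2 Tpm3 probes stands for Tpm3. None of the 8 reached 2-fold in any of the 5 comparisons, where the share of all 7020 genes at 2-fold in either direction was 0.313% for WT TAC minus WT sham, 1.85% for STIM1KO TAC minus STIM1KO sham, 0.556% for STIM1KO sham minus WT sham, 1.97% for STIM1KO TAC minus WT TAC and 2.15% for the response of STIM1KO minus that of WT. At 1.5-fold, 0 of 8 were past the threshold in the WT response, against 2.85% of all genes, and 0 of 8 between the sham arrays, against 3.96%. In the STIM1KO response 1 of 8 was, Tnnt2, against 14.4% of genes. Between the TAC arrays it was again 1 of 8, Tnnt2, against 14.5%. In the difference of responses 2 of 8 were, Tnnt1 and Tnni2, against 14.1%. With 8 genes, a share of 1 or 2 stands near this background. The dimmer Tpm3 probe, not counted here, was past 1.5-fold between the sham arrays (-0.61) and between the TAC arrays (-0.97). With median centring its difference between the TAC arrays was -1.04, past 2-fold.

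An additive limma fit of genotype and operation over the 4 arrays was the test that the design allows. It leaves 1 residual degree of freedom, and that residual holds any interaction together with array error. Limma pooled the spread to 1 value for all genes, so the standard error of each averaged effect was 0.21 on the log2 scale. After Benjamini-Hochberg adjustment, 0.997% of genes were called for operation and 1.78% for genotype. With the brighter Tpm3 probe, none of the 8 genes was called for either, and none had an unadjusted p under 0.05. The lowest adjusted p for a member was 0.479 for operation and 0.413 for genotype, both for Tnnt2. Its averaged difference was 0.39 for both effects, because its normalized values on WT TAC and STIM1KO sham were equal.

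The cardiac troponin genes shared their lowest and their highest array. Tnnt2, Tnni3 and Tnnc1 each had their lowest value on WT sham and their highest on STIM1KO TAC. The share of all filtered genes with this order was not counted, and STIM1KO TAC was the array that stood apart. The order is therefore not shown to be particular to these 3 genes. Their upstream sequences, 250 bases before the annotated start in RefSeq on GRCm38.p6, are shown because these 3 genes shared that pattern, with Tpm1 added as the cardiac tropomyosin that did not share it. The windows are chr1:135836084-135836333 (plus strand) for Tnnt2, chr7:4522529-4522778 (minus strand) for Tnni3, chr14:31208062-31208311 (plus strand) for Tnnc1 and chr9:67049214-67049463 (minus strand) for Tpm1, each written 5′ to 3′ on the strand of the gene. Capitals mark matches to the motifs searched.
Tnnt2: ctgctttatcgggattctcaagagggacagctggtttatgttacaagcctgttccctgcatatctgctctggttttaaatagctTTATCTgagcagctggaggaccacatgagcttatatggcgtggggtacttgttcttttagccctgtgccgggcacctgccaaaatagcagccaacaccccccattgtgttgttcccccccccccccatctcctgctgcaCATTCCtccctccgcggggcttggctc
Tnni3: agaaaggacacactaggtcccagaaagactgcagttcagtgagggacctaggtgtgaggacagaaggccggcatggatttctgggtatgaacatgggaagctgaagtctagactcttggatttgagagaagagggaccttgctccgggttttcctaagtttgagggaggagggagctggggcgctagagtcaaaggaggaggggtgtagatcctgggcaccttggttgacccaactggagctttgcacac
Tnnc1: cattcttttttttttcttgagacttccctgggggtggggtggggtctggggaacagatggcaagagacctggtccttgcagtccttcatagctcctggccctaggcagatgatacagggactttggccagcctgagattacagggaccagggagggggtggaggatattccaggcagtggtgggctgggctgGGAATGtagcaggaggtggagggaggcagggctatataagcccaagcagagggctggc
Tpm1: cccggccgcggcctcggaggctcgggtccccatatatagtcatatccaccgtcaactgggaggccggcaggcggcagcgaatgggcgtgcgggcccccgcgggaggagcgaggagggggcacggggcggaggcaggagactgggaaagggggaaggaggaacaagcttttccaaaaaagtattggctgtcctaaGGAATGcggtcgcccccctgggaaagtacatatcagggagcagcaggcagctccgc

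The motifs searched on both strands were CATTCC, the core of the M-CAT element that TEAD factors bind, the TATA word TATAAA, the GATA-factor word AGATAA and, by name, the CArG box and the MEF2 site. CATTCC was present in the Tnnt2, Tnnc1 and Tpm1 windows, starting 27, 58 and 56 bases before the start. That is 3 of the 9 members with a window, against 12.6% of all 32851 windows of this length. The 9 members have 12 windows in all, and the first was used where RefSeq gives 2 starts. Tnni3, which shared that pattern with Tnnt2 and Tnnc1, held no match to any of these motifs in its window. AGATAA was present for 2 of the 9 members, 166 bases before the start of Tnnt2 and 32 before that of Tpm3, against 9.99% of all windows. The TATAAA word was found only in the Tnnt1 window among the members, 30 bases before the start, against 12.4% of all windows. CArG boxes and MEF2 sites occurred in no member window and in 1.47% and 2.92% of all windows. A match is a description of letters, and no match says only that these letters are not in the window.

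Tnnt2 encodes cardiac troponin T. Its deposited intensities were 34669 (sham) and 41041 (TAC) in WT, and 39542 (sham) and 54102 (TAC) in STIM1KO. The STIM1KO TAC array was highest, the WT TAC and STIM1KO sham arrays lay close together, and WT sham was lowest. Its normalized log2 difference was 0.20 in the WT response to TAC and 0.59 in the STIM1KO response. It was also 0.20 between the sham arrays and 0.59 between the TAC arrays. The last equalities come from the normalization: Tnnt2 had rank 8 on both WT TAC and STIM1KO sham, and quantile normalization gives equal ranks equal values. With each array centred on its median instead, the STIM1KO response was 0.35 and the difference between the TAC arrays 0.39, both under 1.5-fold.

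Tnni3 encodes cardiac troponin I, whose phosphorylation by protein kinase A speeds relaxation. Its deposited intensities were 26303 (sham) and 34034 (TAC) in WT, and 31972 (sham) and 36037 (TAC) in STIM1KO. WT sham stood below the other arrays. Its log2 difference was 0.32 in the WT response, 0.26 in the STIM1KO response, 0.32 between the sham arrays and 0.26 between the TAC arrays. As for Tnnt2, the equal values come from equal ranks, 10 on both WT TAC and STIM1KO sham. With median centring the values involving STIM1KO TAC shrank to 0.07 and 0.08, while the other values were 0.34 and 0.35. How far STIM1KO TAC lay above WT TAC and STIM1KO sham therefore depended on the scaling.

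Tnnc1 encodes the calcium-binding subunit. Its deposited intensities were 23391 (sham) and 24848 (TAC) in WT, and 24508 (sham) and 29832 (TAC) in STIM1KO. Here STIM1KO TAC was alone at the top. The log2 difference was 0.04 in the WT response, 0.32 in the STIM1KO response, 0.19 between the sham arrays and 0.47 between the TAC arrays, and with median centring 0.06, 0.18, 0.13 and 0.26.

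These 3 probes were among the brightest of each array. Tnnt2 ranked between 3 and 9, Tnni3 between 8 and 16 and Tnnc1 between 10 and 23. The ranks describe probes, and a bright probe is no measure of how much of a protein's RNA there is relative to another. On the sham arrays 2 probes shared the highest value, 63075 on WT sham and 62746 on STIM1KO sham, a tie not seen on the TAC arrays, whose highest values were 70132 and 70859. All cardiac troponin values lay below these maxima. For the 100 brightest filtered genes, the median difference between the TAC arrays was 0.00 with an SD across genes of 0.36. Beside it stood 0.59 for Tnnt2, 0.47 for Tnnc1 and 0.26 for Tnni3. With median centring these 3 troponin values were 0.39, 0.26 and 0.08, so how far they stood out depended on the scaling. In the STIM1KO response the same 100 genes had a median of 0.07 and an SD of 0.38.

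Cardiomyocyte markers were mixed. Of 10 listed, 9 had values and 8 passed the filter. Between the TAC arrays, 3 lay above 0 and 5 below it, and the median was -0.13 beside 0.01 for all genes, and values from -1.02 (Cox6a2) to 1.37 (Ttn, titin). Pln, which encodes the calcium pump regulator phospholamban, was higher by 0.55, and Myh6, the heavy chain of adult ventricular myosin, differed by -0.28. The summed normalized intensity of the 9 markers was 125068 (sham) and 125893 (TAC) in WT, and 127586 (sham) and 111867 (TAC) in STIM1KO. The lower sum on STIM1KO TAC was mostly Cox6a2, at 13038 against 23903 on STIM1KO sham. Between the sham arrays 5 markers were above 0 and 2 below, and the 3 cardiac troponins were also above 0. The part of these markers in the troponin values was not tested.

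**Figure D1:**
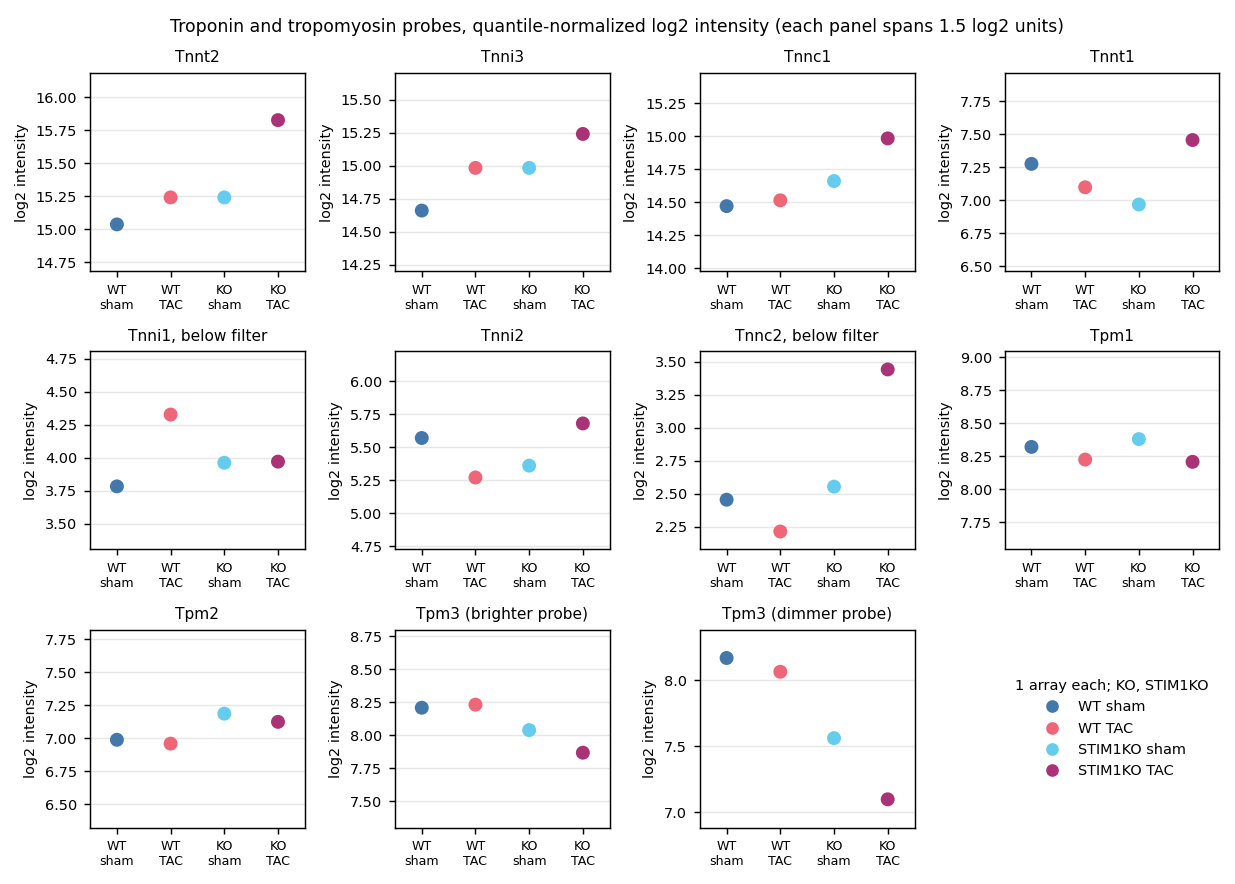
Quantile-normalized log2 intensity of each of the 11 probes (vertical axis, 1.5 log2 units in every panel) on the 4 arrays (horizontal axis, 1 point per array, no error bars because groups hold 1 array). Tnnt2, Tnni3 and Tnnc1 are highest on STIM1KO TAC, and both Tpm3 probes are lowest there, the dimmer one at 7.10 against 8.17 on WT sham.

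The skeletal troponins that passed the filter, Tnnt1 and Tnni2, had a different order. Tnnt1, slow troponin T, had normalized intensities of 155 (sham) and 137 (TAC) in WT, and 125 (sham) and 176 (TAC) in STIM1KO. It was highest on STIM1KO TAC and lowest on STIM1KO sham. Its log2 difference was -0.18 after TAC in WT and 0.49 after TAC in STIM1KO, so the response differed by 0.67 between genotypes, or 0.57 with median centring. The genotype difference was -0.31 after sham and 0.36 after TAC.

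Tnni2, fast troponin I, had normalized intensities of 47.5 (sham) and 38.6 (TAC) in WT, and 41.1 (sham) and 51.3 (TAC) in STIM1KO. WT TAC and STIM1KO sham were the low arrays. Its log2 difference was -0.30 after TAC in WT and 0.32 after TAC in STIM1KO, a difference of responses of 0.62, or 0.59 with median centring. It differed by -0.21 between the sham arrays and 0.41 between the TAC arrays. The SD of the difference of responses over all filtered genes was 0.43, so both genes lay beyond 1 SD of it.

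Tnni1 and Tnnc2 were below the filter, where errors of a probe weigh more. Tnni1, slow and fetal troponin I, had normalized intensities of 13.8 (sham) and 20.1 (TAC) in WT, and 15.6 (sham) and 15.7 (TAC) in STIM1KO. WT TAC was the high array and the rest were close together. Its log2 difference was 0.54 after TAC in WT and 0.01 after TAC in STIM1KO, and between the TAC arrays it was -0.36. Tnnc2, fast troponin C, had normalized intensities of 5.49 (sham) and 4.64 (TAC) in WT, and 5.88 (sham) and 10.9 (TAC) in STIM1KO. Its log2 difference between the TAC arrays was 1.23, but 0.69 once an offset of 5.49 intensity units was added before log2, which puts it under 2-fold. On these arrays the first quartile of deposited intensities is about that low, so the size of the Tnnc2 difference is not fixed by the data.

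Markers of skeletal muscle were mixed. Of 12 listed, 8 had values on all arrays and 3 passed the filter. Myl1, a skeletal myosin light chain, differed by -0.76 after TAC in WT and 0.26 after TAC in STIM1KO, as Tnnt1 and Tnni2 did in sign. Its genotype difference was -1.66 after sham and -0.64 after TAC, and the latter was opposite in sign to Tnnt1 and Tnni2. Mybpc2, a fast myosin-binding protein, went the other way, with 0.55 in WT and -0.94 in STIM1KO, and Pvalb differed by -0.07 and -0.23. The dim Myh4 probe differed by -0.01 and 0.81. Myh4 and Actn3, both fast fibre markers, had normalized intensities of at most 6.21 and 7.37 on any array, and Tnnt3, the fast troponin T, at most 6.47. The summed intensity of the 8 markers was 1594 (sham) and 1050 (TAC) in WT, and 686 (sham) and 706 (TAC) in STIM1KO, and most of it was Myl1. Their part in the Tnnt1 and Tnni2 values was not tested.

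Tpm3 showed, through its dimmer probe, the widest range of any filtered member, 1.07 on the log2 scale, and its 2 probes moved in the same direction between genotypes by unequal amounts. The brighter probe had normalized intensities of 296 (sham) and 300.4 (TAC) in WT, and 263 (sham) and 233 (TAC) in STIM1KO. The dimmer probe had 288 (sham) and 268 (TAC) in WT, and 189 (sham) and 137 (TAC) in STIM1KO. On both probes the STIM1KO arrays were below both WT arrays, and STIM1KO TAC was the lowest.

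The genotype difference of the brighter Tpm3 probe was -0.17 after sham and -0.36 after TAC. That of the dimmer probe was -0.61 after sham and -0.97 after TAC, a 1.95-fold lower signal, or -1.04 under median centring and -1.03 in the deposited values. In the additive limma fit the averaged genotype difference was -0.27 with a standard error of 0.21 for the brighter probe (adjusted p = 0.629) and -0.79 with the same standard error for the dimmer probe (adjusted p = 0.0201). The mean of both probes gave -0.53 (adjusted p = 0.209). Under the remaining settings the adjusted p for Tpm3 by genotype lay between 0.426 and 0.694, so a genotype call for Tpm3 rests on the dimmer probe alone.

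Between TAC and sham, Tpm3 had no settled direction in WT, at 0.02 for the brighter probe and -0.10 for the dimmer one. In STIM1KO both probes were lower after TAC, by -0.17 and -0.46. Tropomyosin genes make many splice forms from alternative exons and starts, and which exons either Tpm3 probe covers is not stated in the labels or the annotation. RefSeq lists Tpm3-related pseudogenes in the mouse genome, so signal from near-identical sequence is also uncertain.

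Endothelial cells and fibroblasts contain non-muscle tropomyosin. Endothelial markers were mostly lower on the STIM1KO arrays, as Tpm3 was, and fibroblast markers were so after sham. Of 10 endothelial markers 8 passed the filter. Between the sham arrays 7 of the 8 were below 0, with a median of -0.34 beside 0.00 for all genes. For the TAC arrays it was 8 of 8, with a median of -0.59 beside 0.01 for all genes, led by Tie1 (-0.77) and Eng (-0.74). Their summed normalized intensity over 10 markers was 2274 (sham) and 1850 (TAC) in WT, and 1566 (sham) and 1396 (TAC) in STIM1KO. Fibroblast markers were below 0 in 8 of 8 filtered cases between the sham arrays, with a median of -0.27, and in 5 of 8 between the TAC arrays, with a median of -0.12, where Col1a2 was higher by 0.73. Their summed intensity over 10 markers was 6334 (sham) and 5982 (TAC) in WT, and 4863 (sham) and 3718 (TAC) in STIM1KO. The lower sum on STIM1KO TAC than on WT TAC was mostly Dcn, at 1433 against 2879, and Vim, at 894 against 1757. The endothelial cadherin gene Cdh5 was dim on all arrays, at 10.3 on WT sham and 3.86 on STIM1KO TAC. Their part in the Tpm3 difference was not tested.

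The single probe of Tpm1, the main cardiac tropomyosin, was the steadiest among the members under quantile normalization. With median centring or the values as deposited, Tpm2 had a slightly narrower range. The Tpm1 probe had ranks between 1970 and 2157, and which exons it covers is not stated, so the splice forms it reports are unknown. Its normalized intensities were 319 (sham) and 299 (TAC) in WT, and 333 (sham) and 295 (TAC) in STIM1KO, a range of 0.17 on the log2 scale. Both TAC arrays were slightly below both sham arrays. The log2 difference was -0.10 after TAC in WT and -0.17 after TAC in STIM1KO, both within the SD across genes. Tpm2, beta-tropomyosin, had 127 (sham) and 124 (TAC) in WT, and 146 (sham) and 139 (TAC) in STIM1KO. The STIM1KO arrays were slightly above the WT arrays, by 0.20 after sham and 0.17 after TAC. Its difference in the WT response, -0.03, turned to 0.03 with the values as deposited.

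Smooth muscle cells also contain Tpm1 and Tpm2. Of 10 smooth muscle markers 6 passed the filter, and 4 of 6 were above 0 between the sham arrays, with a median of 0.21. Tagln, which encodes transgelin, was higher by 0.69. Between the TAC arrays 2 of 6 were above 0, with a median of -0.17. Des, at 0.71, was among those above 0 between the TAC arrays. Cardiomyocytes also contain its product, desmin, so the counts and medians here are not of smooth muscle alone. In the STIM1KO response Acta2, smooth muscle actin, was lower by -1.09, beside -0.06 for Tpm2.

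**Figure D2:**
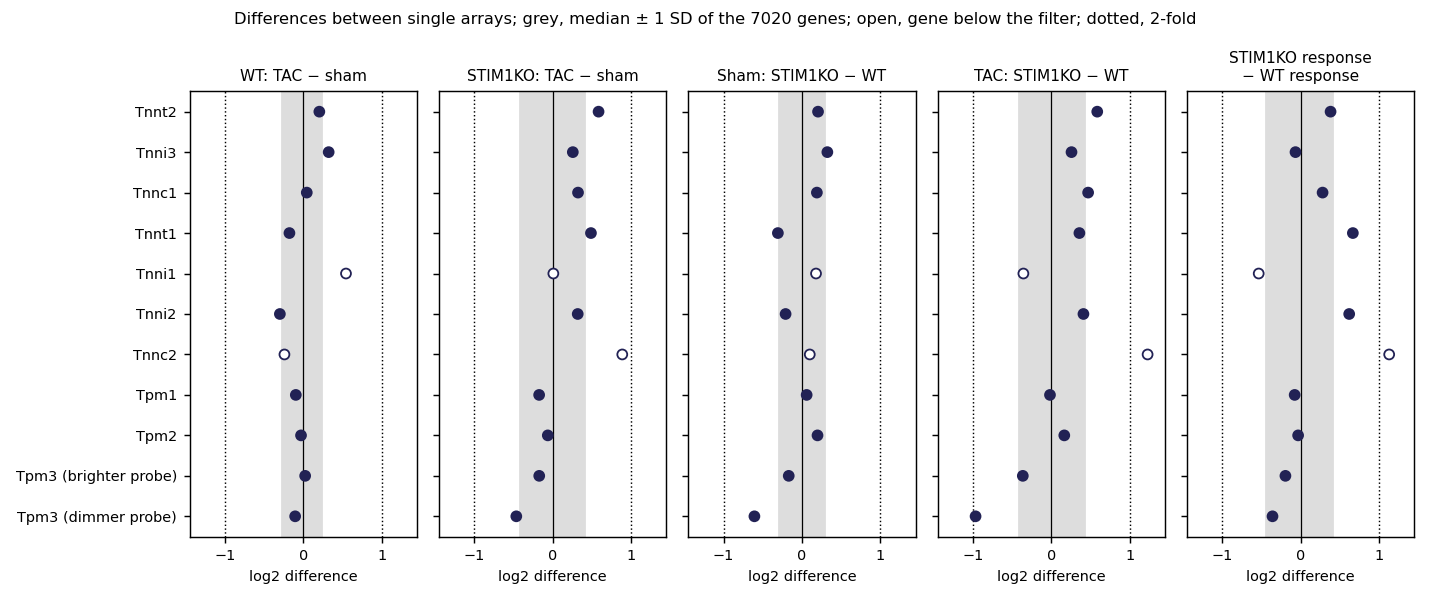
Log2 difference (horizontal axis) of each probe (vertical axis) in the 5 comparisons between single arrays. The grey band is the median ± 1 SD of the 7020 filtered genes, dotted lines mark 2-fold, and open points are Tnni1 and Tnnc2, below the filter. Between the TAC arrays the dimmer Tpm3 probe is at -0.97 and Tnnt2 at 0.59, outside the band. Under median centring, not plotted, Tnnt2 was at 0.39.

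To compare cardiac, slow and fast isoforms on each array, the log2 intensity of the cardiac probe was subtracted from that of its counterpart. The size of such a ratio depends on the pair of probes, so only its change between arrays is read, and a change shows unequal movement without saying which gene moved. The Tnnt1 to Tnnt2 ratio was highest on WT sham. Relative to that array it was -0.38 on WT TAC, and -0.51 (sham) and -0.61 (TAC) in STIM1KO. In the STIM1KO response it changed by -0.10, which turned to 0.06 both with median centring and on the deposited scale.

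The Tnni2 to Tnni3 ratio was also highest on WT sham, with -0.62 on WT TAC, and -0.53 (sham) and -0.47 (TAC) in STIM1KO. These 2 ratios were thus lower on each of the other arrays than on WT sham, which is a single array. The Tnnt1 to Tnnt2 value of -0.38 on WT TAC was smaller in size than 0.43, the error of a ratio change taken from the additive fit. With median centring, the Tnni2 to Tnni3 value on STIM1KO TAC was also smaller in size than that error. The Tnni1 to Tnni3 ratio, the fetal form against the adult form, relative to WT sham was 0.22 on WT TAC, and -0.14 (sham) and -0.39 (TAC) in STIM1KO. Between the TAC arrays it changed by -0.61, or -0.41 with median centring. For comparison, the ratio of Myh7 to Myh6, the slow to the adult fast myosin heavy chain, was 0.68 on WT TAC, and 0.38 (sham) and 0.24 (TAC) in STIM1KO. Both fetal-to-adult ratios were highest on WT TAC. The 0.22 for Tnni1 to Tnni3, however, rests on the dim Tnni1 probe and was 0.085 with the offset. It is also below 0.43, an error that comes from the filtered genes and so does not cover Tnni1.

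The Tnnc2 to Tnnc1 ratio was -0.28 on WT TAC, and -0.09 (sham) and 0.47 (TAC) in STIM1KO, and it rests on the dim Tnnc2 probe. Its change between the TAC arrays, 0.76, was 0.22 with the offset. The Tpm2 to Tpm1 ratio was 0.07, 0.14 and 0.25 in the same order. The Tpm3 to Tpm1 ratio with the brighter Tpm3 probe was 0.12, -0.23 and -0.23. Its genotype change was -0.23 after sham and -0.35 after TAC, and -0.67 and -0.95 with the dimmer probe.

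**Figure D3:**
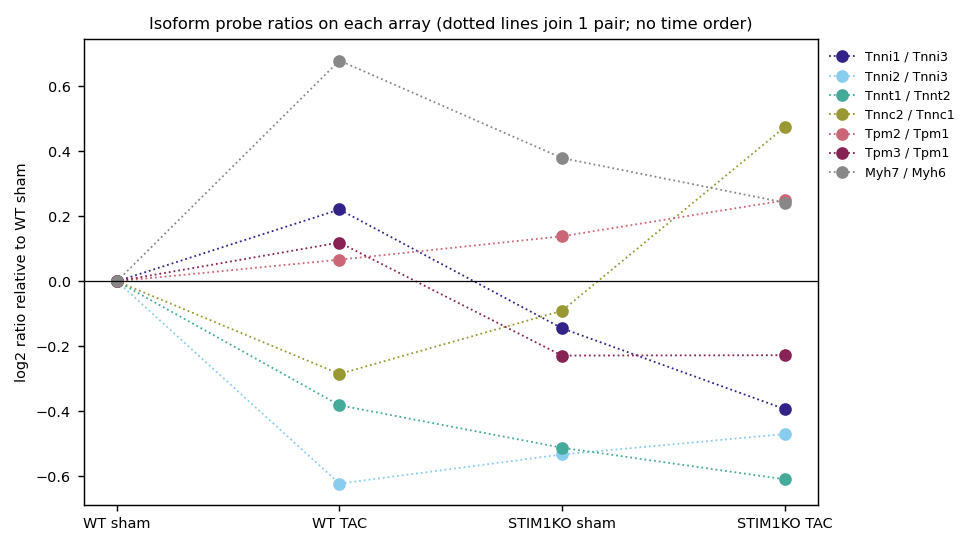
Log2 ratio of a slow, fast or fetal isoform probe to its cardiac counterpart (vertical axis, relative to WT sham) on the 4 arrays (horizontal axis). Each point is 1 array, and dotted lines only join the points of a pair. The Tnnt1 to Tnnt2 and Tnni2 to Tnni3 ratios lie below 0 on every array other than WT sham, and the Tnni1 to Tnni3 and Myh7 to Myh6 ratios are highest on WT TAC.

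Troponin I and T genes lie in pairs in the mouse genome, and 2 of the pairs join a slow to a cardiac isoform. In the RefSeq gene table for GRCm38.p6, Tnnt1 and Tnni3 are neighbours with no protein-coding gene between them. Tnni1 and Tnnt2 have 1 between them, Lad1, and Tnni2 and Tnnt3 have 1, Lsp1. In the WT response the neighbours Tnnt1 and Tnni3 differed by -0.18 and 0.32, and between the sham arrays by -0.31 and 0.32. They differed by 0.49 and 0.26 in the STIM1KO response and by 0.36 and 0.26 between the TAC arrays. The neighbours Tnni1 and Tnnt2 differed by 0.54 and 0.20 after TAC in WT, 0.18 and 0.20 between the sham arrays, 0.01 and 0.59 after TAC in STIM1KO, and -0.36 and 0.59 between the TAC arrays.

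Other proteins of the thin filament were followed in a list of 20 genes, of which 17 had values and 14 passed the filter. The list holds Mybpc3, a thick filament protein, which is left out of the counts here and leaves 13 genes. In the WT response 5 lay above 0 and 8 lay below it, and the median was -0.14 beside -0.01 for all genes. In the STIM1KO response 3 lay above 0 and 10 below it, and the median was -0.12 beside -0.00 for all genes, or -0.21 with median centring. Acta1, skeletal alpha-actin, differed by -1.41 in WT and -1.52 in STIM1KO, and the left-out Mybpc3, cardiac myosin-binding protein C, by -0.57 and -0.54. Svil, which encodes supervillin, was higher by 1.28 and 0.72.

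Between genotypes this list was divided. After sham 10 of 13 were above 0 and the median was 0.12, and after TAC 7 of 13 with a median of 0.04, or -0.07 with median centring. Tmod3, the non-muscle capping protein of filament pointed ends, differed by -0.68 after sham and -0.48 after TAC, lower on both STIM1KO arrays as Tpm3 was. Tmod1, its cardiac relative, was higher by 0.23 and 0.33. Tpm4, a further non-muscle tropomyosin, differed by -0.12 and 0.04. After sham it was near the brighter Tpm3 probe (-0.17), and after TAC it was not lower, as both Tpm3 probes were.

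Kinases and phosphatases that act on thin filament proteins were listed as 17 genes, of which 8 passed the filter. In each comparison 0 of 8 reached 1.5-fold, against 2.85% to 14.5% of all genes, which for 8 genes is near the background. Prkar1a, a regulatory subunit of protein kinase A, was higher by 0.43 after TAC in WT and 0.25 after TAC in STIM1KO. Tnni3k, a kinase named for its binding to cardiac troponin I, differed by -0.08 in WT and 0.29 in STIM1KO. Among 14 factors that regulate splicing in muscle, 11 passed the filter. Between the TAC arrays 2 of 11 reached 1.5-fold, near the 14.5% of all genes. They were Celf2 (-0.64) and Mbnl1 (-0.64), whose products regulate the splicing of Tnnt2 exons, and Rbm20 was higher by 0.40. A probe intensity for Tnnt2 does not show which splice form was present.

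Tnnt2 was also the filtered member with the widest range when the brighter Tpm3 probe stands for that gene, 0.79 on the log2 scale. The filtered genes nearest to its profile over the 4 arrays, after centring each gene on its own mean, were Dusp4, Niban2 and Coq6, with root mean square differences of 0.0099, 0.020 and 0.021. Dusp4 encodes a phosphatase of mitogen-activated protein kinases and Coq6 an enzyme of coenzyme Q synthesis. With 4 arrays and 7020 genes, near profiles can be found for most genes, so likeness is only a description.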

How the data were processed

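Left ventricular RNA was converted to amino allyl aRNA and coupled to Cy5, with 1 array for each group, per the labels' protocols. The intensity values deposited by the authors are linear, with array medians of about 20.0. Scanner, background correction and the reason for empty cells: not given in the sources used here. Symbols came from the platform annotation, with 3947 updated through synonyms. Probes with a value on all 4 arrays (19607) were taken to log2 and quantile normalized. The brightest probe stood for a gene, and a gene was kept when its mean log2 intensity reached the median over genes, 4.87. Single differences have no test. The additive fit used limma 3.58.1 in R 4.3.3 with Benjamini-Hochberg adjustment. The normalization, the filter and the 2-fold count of a single comparison were tested on simulated data.

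The members, lists, isoform pairs and rules for named genes (all members, up to 4 per list, the 3 genes nearest to the member with the widest range, and Stim1, Myh6 and Myh7) were chosen with earlier results of these data known. Alternatives were median centring, values as deposited, no filter, a 75th percentile filter, an offset of 5.49, the mean over probes and thresholds of 1.5-fold and 3-fold. The dimmer Tpm3 probe, normalization without the STIM1KO TAC array and the thin filament list without Mybpc3 were added after seeing the data. Pvalb, Actn3, Myh4, Tnnt3 and Tpm4 are named to account for their lists. The number of arrays limits the precision.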

Additional observations from a re-analysis of the deposited data

Results flagged for a closer look

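Several members differed in opposite directions in the groups compared, under quantile normalization, median centring, the deposited values and the offset. The difference itself was not tested, since each group holds 1 array. What share of filtered genes had opposite directions was not counted, so the pattern is not shown to be particular to these members. Filtered genes higher and lower after TAC numbered 3320 and 3684 within WT, and 3470 and 3544 within STIM1KO. Those higher and lower in STIM1KO numbered 3514 and 3493 after sham, and 3589 and 3424 after TAC. Some flagged values were small. Tpm1 differed by 0.06 between the sham arrays and -0.02 between the TAC arrays, and the brighter Tpm3 probe by 0.02 after TAC in WT. For the response to TAC in the 2 genotypes, the STIM1KO minus WT value was 0.67 for Tnnt1, 0.62 for Tnni2, 1.13 for the dim Tnnc2 probe and -0.19 for the brighter Tpm3 probe. For the genotype difference after the 2 operations, the same quantity was 0.67 for Tnnt1, 0.62 for Tnni2, -0.54 for the dim Tnni1 probe and -0.077 for Tpm1. The SD of this quantity over all filtered genes was 0.43, which does not cover the dim Tnni1 and Tnnc2 probes. With the offset the Tnnc2 value was 0.64. A dimmer Tpm3 probe differed by -0.10 in the WT response, so the opposite directions of Tpm3 hold for 1 of its 2 probes.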

How the results depend on the processing

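Leaving out values that an alternative cannot change by construction, 174 of 180 member differences moved by less than the error of a single difference taken from the additive fit (0.30, or 0.43 for the difference of responses). Of 94 changes of isoform ratios, 91 moved by less than the matching error (0.43, or 0.60). The ones that moved belong to Tnnc2 under the offset and to Tpm3 under the other probe or the mean of both. The errors come from the filtered genes, so they do not cover the dim Tnni1 and Tnnc2 probes. They also exceed many of the differences, so a value could shrink or change sign and still not count as moved. Tnni3 between the TAC arrays went from 0.26 to 0.08 with median centring. Tpm2 in the WT response went from -0.03 to 0.03 with the values as deposited. For ratios, the Tnnc2 to Tnnc1 change between the TAC arrays went from 0.76 to 0.22 with the offset, and with the dimmer Tpm3 probe the Tpm3 to Tpm1 change went to -0.67 after sham and -0.95 after TAC.

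Counts of all genes past the threshold follow its height and the genes tested. In the order WT response, STIM1KO response, sham arrays, TAC arrays and difference of responses, the main counts of 22, 130, 39, 138 and 151 became 292, 816, 375, 756 and 1206 without a filter on dim genes, 7, 52, 20, 46 and 61 under the stricter filter (75th percentile), 200, 1012, 278, 1020 and 989 at 1.5-fold, and 5, 14, 12, 9 and 24 at 3-fold. The additive limma fit called 70 genes for operation and 125 for genotype. It called 10 and 56 with the values as deposited, 44 and 72 with the 75th percentile filter, and 0 and 0 with no filter, where 1153 and 1356 had an unadjusted p under 0.05. Among the members, the genotype count was 0 in the main fit and 1 with the dimmer Tpm3 probe, and 0 under each of the other alternatives run. Normalizing without the STIM1KO TAC array moved no member's WT response or sham difference beyond 0.30. The additive fit without that array has no residual degrees of freedom and was not run. No paired analysis was possible because each group holds 1 array.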
